A study of Arabidopsis thaliana with 6 samples.

Results

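The 37 genes described here are a part of the glucosinolate pathway of Arabidopsis thaliana, from its regulators to the myrosinases. They are 37 of the 44200 rows (genes and de novo loci) of one RNA-seq count table. They were chosen by known function, with earlier results of these data known. The group holds 6 MYB regulators, 9 genes of chain elongation, 15 of the core structure, 5 of side-chain modification and the myrosinases TGG1 and TGG2. By branch, 24 belong to the aliphatic pathway, 8 to the indolic pathway, 3 to both and 2 to breakdown.

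Glucosinolates are sulfur-rich defence compounds of the Brassicaceae, made from methionine in the aliphatic branch and from tryptophan in the indolic branch. In the aliphatic branch the amino acid is first lengthened, after which CYP79 and CYP83 enzymes, a C-S lyase, glucosyltransferases and sulfotransferases build the core, and the side chain is then modified. Myrosinases are thioglucosidases kept apart from their substrates, and they release toxic products when tissue is damaged.

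Whole seedlings of 2 genotypes were sequenced, 3 biological replicates each: the Columbia wild type Col-0, and the double mutant nsra/b. NSRa and NSRb are RNA-binding proteins of nuclear speckles that take part in alternative splicing. Per the methods the double mutant combines a SALK and a SAIL T-DNA insertion in the Col-0 background, 1 line for each gene. Both genotypes were grown in long days on half-strength MS medium, moved at 14 days to mock medium without hormone for 24 h, and harvested at 15 days per the labels, whereas the methods give a younger age.

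Library totals ran from 25936176 to 32578330 counts, and scaling factors from 0.992 to 1.01. The loci taken as NSRa and NSRb from general knowledge, since no source used here pairs these names with identifiers, are AT1G76940 and AT1G21320. Col-0 had 396, 519 and 441 counts of AT1G76940, against 4987, 5898 and 5577 in the libraries labelled nsra/b. AT1G21320 had 17, 25 and 25 counts against 81, 78 and 88. Both were higher, not lower, in the libraries labelled nsra/b, so the counts do not show the loss that the label names. The transcript of AT1G21320 shares 216 of its 2394 stretches of 100 bases with AT1G21326, so the separate value of AT1G21320 is uncertain. Gene counts cannot tell a whole transcript from a truncated one, and the position of the insertions was not analysed here. The flowering repressor FLC, which is not itself a target of the insertions and which the study examined in the mutant, had 75, 102 and 70 counts against 8, 7 and 7, and fell (log2 fold change -3.42, edgeR adjusted p 1.6e-12). The genotype is given below as labelled.

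In the libraries labelled nsra/b, 7 glucosinolate genes fell and none rose. The genes that fell were BCAT4, MAM1 and IPMI1 of chain elongation, CYP79F1, CYP83A1 and CYP79B3 of the core structure, and CYP81F2 of indolic side-chain modification. The changes were small: the least changed, MAM1, fell by 7.91% and the most changed, IPMI1, fell by 15.6%. None of the 6 MYB regulators and neither myrosinase passed the test. Of the 37 genes, 36 had enough counts to be tested. The exception was AOP3 (AT4G03050), with 0, 1 and 0 counts in Col-0 and 0 in each of the other 3 libraries, below the count filter (minimum of 10, total of 15).

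The test was edgeR's quasi-likelihood test on all 21606 features above the count filter, with Benjamini-Hochberg adjustment over all of them and an adjusted p under 0.01 as the threshold. The 7 lower genes are 19.4% of the 36 tested, beside 3.58% of all tested features called lower. No member was called higher, beside 5.28% of all features, and 8.86% of all features were called in either direction. The members were chosen with earlier results of these data known, so these shares are a description, not independent support. The shares over all features, here and below, were not matched to the members in abundance. With no adjustment, 2 members, MYB34 and TGG1, were higher at p under 0.05 by edgeR, and also 2 by DESeq2 and 2 by limma voom. The unadjusted share over all features was not counted. DESeq2 called 4 of the same 7 members lower (IPMI1, CYP79F1, CYP83A1 and CYP79B3), beside 2.14% of all features, and none higher, beside 3.04%.

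The direction was shared more widely than the calls. The log2 fold change was below 0 for 31 of the 36 tested members, and for 10804 of all 21606 tested features. The median log2 fold change of the members was -0.07, and that of all features was -0.00004. A count of the direction in every refit, chosen after the data were seen, gave between 27 and 33 members below 0. Before adjustment, edgeR gave 16 members a p under 0.05 in the lower direction, of which 7 passed the adjusted threshold. The share of all features at this unadjusted threshold was not counted, so the number does not set the members apart.

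**Figure D1:**
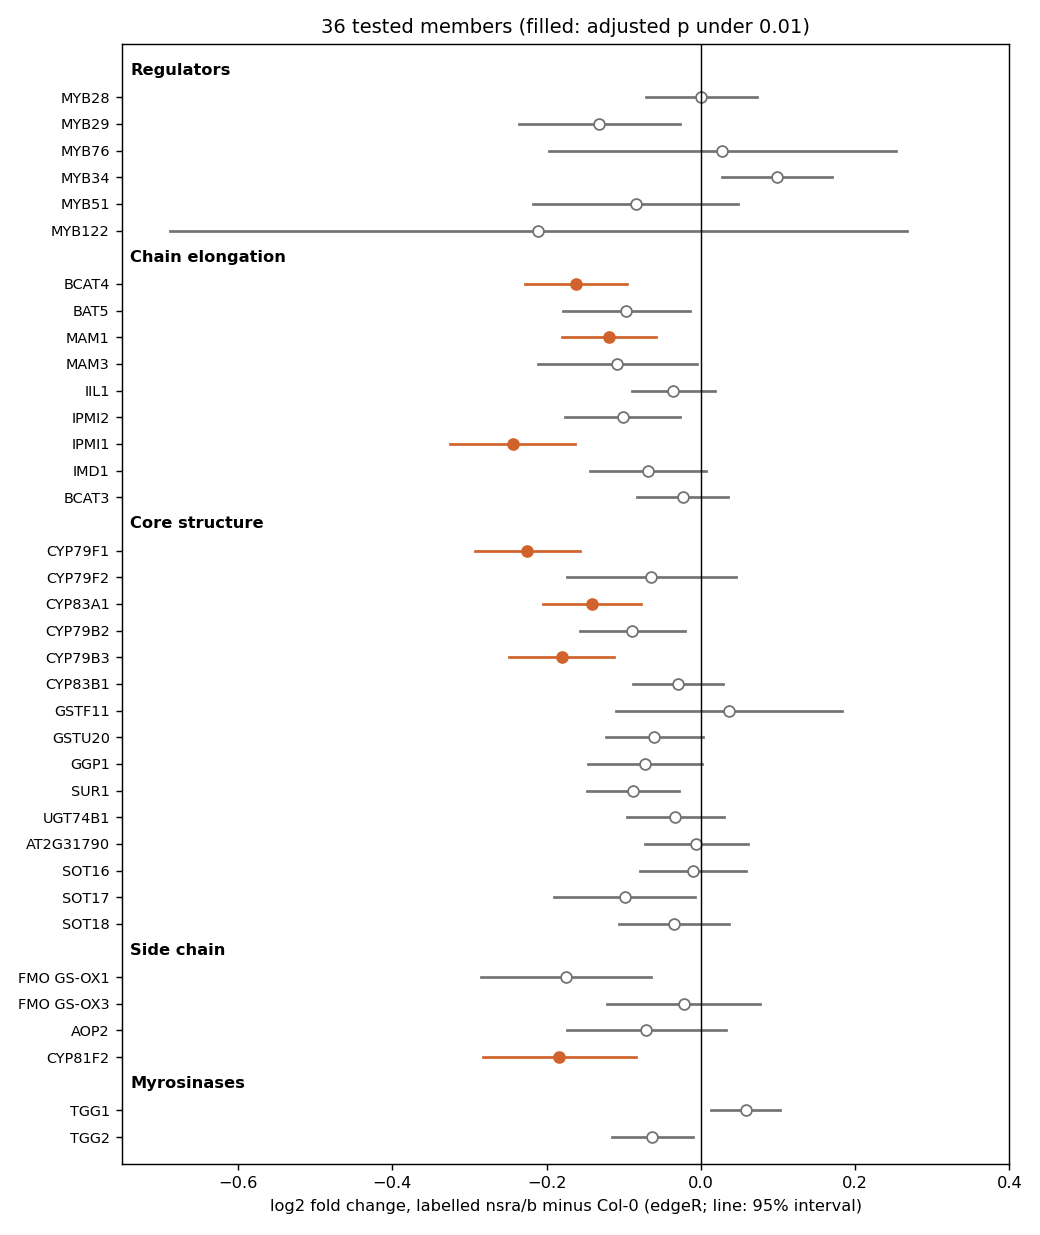
The log2 fold change of each of the 36 tested members (x axis, libraries labelled nsra/b minus Col-0) is drawn with its 95% interval and grouped by step. Filled points mark the 7 members with an adjusted p under 0.01, which all lie between -0.24 and -0.12, and 31 of the 36 points lie below 0.

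The libraries themselves overlapped for most members. For 12 of the 36 tested members all 3 libraries labelled nsra/b lay below all 3 Col-0 libraries, and for 2 (MYB34 and TGG1) they lay above. Among all tested features 14.1% had such a gap downward and 15.9% upward. The 12 were the 7 called genes together with MYB29, MAM3, IPMI2, SUR1 and FMO GS-OX1. The library labelled nsra/b replicate 1 was the lowest of the 6 for 24 of the 36 members, and for 6 of the 7 called ones. Without it, 4 members were called lower (BCAT4, IPMI1, CYP79F1 and CYP79B3) and 27 of 36 lay below 0. Without Col-0 replicate 2, the highest library for 17 members, 3 were called lower (IPMI1, CYP79F1 and CYP79B3), and without Col-0 replicate 3 there were 4 (BCAT4, IPMI1, CYP79F1 and CYP79B3). In bulk seedlings, fewer cells of a type and less RNA per cell cannot be told apart.

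**Figure D2:**
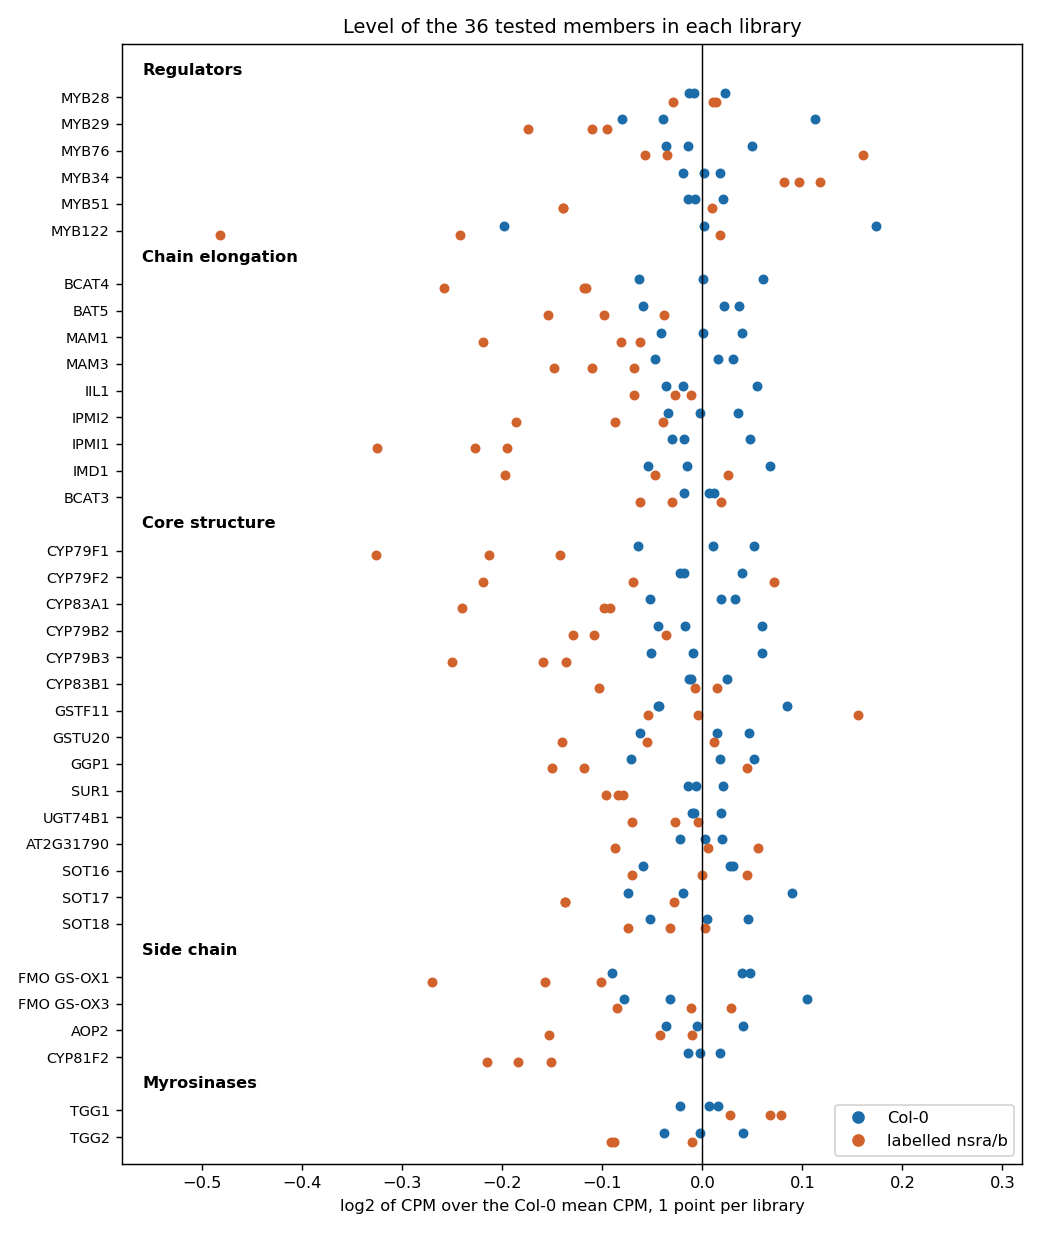
Each point is 1 library, placed on the x axis by the log2 of its CPM (counts scaled to a common library size) over the mean CPM of the 3 Col-0 libraries, for the 36 tested members grouped by step. The points of the libraries labelled nsra/b sit to the left of all Col-0 points for 12 members, and to the right for MYB34 and TGG1.

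Among the regulators, no member was called, in either branch. MYB28, MYB29 and MYB76 are R2R3-MYB factors that activate the aliphatic genes, and MYB34, MYB51 and MYB122 activate the indolic genes. In Col-0, MYB28 (AT5G61420) had 46.1, 45.1 and 45.0 CPM, against 44.5, 45.7 and 45.8 CPM in the libraries labelled nsra/b, where CPM are counts scaled to a common library size. These values overlapped, and the log2 fold change was 0.00 ± 0.04 (SE, 95% interval -0.07 to 0.07). The summed level of the 3 aliphatic regulators was 74.2 ± 1.64 CPM in Col-0 and 72.1 ± 0.825 CPM in the libraries labelled nsra/b (SD, n = 3 each).

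MYB29 (AT5G07690) had 23.5, 26.8 and 24.2 CPM in Col-0 against 23.0, 22.0 and 23.2 CPM. All 3 values labelled nsra/b lay below the Col-0 values, by a narrow gap, and the log2 fold change of -0.13 ± 0.05 (SE) had an edgeR adjusted p of 0.0823. Without single libraries its log2 fold change ran from -0.17 to -0.07. MYB76, the neighbour of MYB29 on chromosome 5, was low, at 3.96 ± 0.122 CPM and 4.03 ± 0.342 CPM (SD, n = 3 each).

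MYB34 (AT5G60890) had 45.2, 45.7 and 44.6 CPM in Col-0 and 47.8, 48.3 and 49.0 CPM in the libraries labelled nsra/b. It was the member with the highest fold change, a log2 of 0.10 ± 0.03 (SE), with groups that did not overlap and an edgeR adjusted p of 0.0519. MYB51 (AT1G18570) had 12.6, 12.3 and 12.4 CPM against 11.3, 12.5 and 11.3 CPM. Its groups overlapped, with a log2 fold change of -0.08 ± 0.07 (SE) and an edgeR adjusted p of 0.445. MYB122 was the least abundant tested member, at 0.955 ± 0.123 CPM and 0.819 ± 0.142 CPM (SD, n = 3 each), and its 95% interval ran from -0.69 to 0.27 on the log2 scale.

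The chain elongation genes gave 3 falls among 9, beside 3.58% of all tested features. All 9 had log2 fold changes below 0, from -0.24 to -0.02. Their summed level was 1096 ± 27.7 CPM in Col-0 and 1026 ± 42.8 CPM in the libraries labelled nsra/b (SD, n = 3 each). These enzymes deaminate methionine, condense the resulting keto acid with acetyl-CoA, and isomerise and decarboxylate the product.

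BCAT4 (AT3G19710), the aminotransferase that starts the cycle, lies on chromosome 3 from 6846969 to 6849582 (minus strand, RefSeq annotation of TAIR10.1). It had 157.5, 171.7 and 164.7 CPM in Col-0 and 137.6, 151.9 and 151.7 CPM in the libraries labelled nsra/b. The groups did not overlap, and the level fell by 10.6% (log2 fold change -0.16 ± 0.03 SE, edgeR adjusted p 0.000469). DESeq2 gave an adjusted p of 0.0529.

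MAM1 (AT5G23010), the methylthioalkylmalate synthase that condenses the keto acid in the first rounds, lies on chromosome 5 from 7703041 to 7706973. It had 298.6, 316.0 and 307.5 CPM against 264.0, 290.4 and 294.3 CPM, without overlap. It fell by 7.91% (log2 fold change -0.12 ± 0.03 SE, edgeR adjusted p 0.00510), but it was called in only 3 of the 6 fits that left out 1 library, where the adjusted p reached 0.0650, and DESeq2 gave 0.179. MAM3, its adjacent paralog that also serves longer chains, had 20.8 ± 0.597 CPM and 19.3 ± 0.537 CPM (SD, n = 3 each; log2 fold change -0.11, edgeR adjusted p 0.163).

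IPMI1 (AT3G58990) is a small subunit of isopropylmalate isomerase on chromosome 3, from 21797058 to 21798303 (minus strand). It had 44.3, 41.9 and 42.3 CPM in Col-0 and 34.2, 36.6 and 37.4 CPM in the libraries labelled nsra/b. The gap between the groups was wider than the spread within either. The fall of 15.6% (95% interval -20.2% to -10.7%) was the largest among the called members, with a log2 fold change of -0.24 ± 0.04 (SE) and an edgeR adjusted p of 3.2e-05. It was called in all 6 fits without 1 library and by DESeq2.

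The other isomerase genes did not pass the test. IPMI2, another small subunit, had 55.9 ± 1.36 CPM and 52.1 ± 2.68 CPM (SD, n = 3 each), with an edgeR adjusted p of 0.0582. IIL1, the large subunit, had 235.1 ± 7.93 CPM and 229.3 ± 4.65 CPM, with an edgeR adjusted p of 0.416. The length-normalised ratio of IPMI2 to IPMI1 was 1.31, 1.42 and 1.34 in the Col-0 libraries, and it lay higher in all 3 libraries labelled nsra/b, up to 1.51. How often the ratios of other gene pairs separate the groups was not counted, for this or the later ratios. The remaining members, the plastid transporter gene BAT5, the dehydrogenase gene IMD1 and the aminotransferase gene BCAT3, had log2 fold changes of -0.10, -0.07 and -0.02.

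The genes of the core structure gave 3 falls among 15, beside 3.58% of all tested features, and 14 of the 15 lay below 0. Their summed level was 1418 ± 36.7 CPM in Col-0 and 1333 ± 55.5 CPM in the libraries labelled nsra/b (SD, n = 3 each). In both branches 1 of the paired CYP79 genes fell, while the other did not pass the test, and the difference within each pair was not tested.

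CYP79F1 (AT1G16410) converts chain-elongated methionine to aldoximes, and lies on chromosome 1 from 5608682 to 5612064 (plus strand). It had 152.7, 165.4 and 160.8 CPM in Col-0 and 127.3, 137.7 and 144.6 CPM in the libraries labelled nsra/b. The groups did not overlap. The level fell by 14.5% (95% interval -18.4% to -10.3%), a log2 fold change of -0.23 ± 0.03 (SE) with an edgeR adjusted p of 7.2e-06. It was the only member below a Bonferroni-adjusted p of 0.01.

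CYP79F2 (AT1G16400), the adjacent paralog that acts on the longer chains, had 24.6, 25.6 and 24.6 CPM against 21.4, 23.8 and 26.2 CPM. Its libraries overlapped, and the log2 fold change of -0.06 ± 0.05 (SE) had an edgeR adjusted p of 0.493. The ratio of CYP79F1 to CYP79F2, in length-normalised units (TPM), was 3.84, 3.98 and 4.03 in Col-0 and 3.67, 3.58 and 3.40 in the libraries labelled nsra/b. The ratios did not overlap. Only 1 stretch of 100 bases was identical between the transcripts of the pair.

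CYP83A1 (AT4G13770) oxidises the aliphatic aldoximes, and lies on chromosome 4 from 7990429 to 7992429 (minus strand). It had 176.4, 187.2 and 185.3 CPM in Col-0 and 154.9, 170.9 and 171.6 CPM in the libraries labelled nsra/b, without overlap. It fell by 9.34% (log2 fold change -0.14 ± 0.03 SE, edgeR adjusted p 0.00140) and was called by DESeq2, but in only 3 of the 6 fits without 1 library. CYP83B1 (AT4G31500), its counterpart in the indolic branch, had 147.9, 151.7 and 147.7 CPM against 138.8, 148.3 and 150.6 CPM. These overlapped (log2 fold change -0.03 ± 0.03 SE, edgeR adjusted p 0.554). The TPM ratio of CYP83A1 to CYP83B1 was 1.22 on average in Col-0 and 1.13 in the libraries labelled nsra/b, without overlap.

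CYP79B2 and CYP79B3 convert tryptophan to its aldoxime, the entry to indolic glucosinolates. CYP79B3 (AT2G22330), on chromosome 2 from 9488413 to 9491404 (plus strand), had 85.6, 88.1 and 92.4 CPM in Col-0 and 74.6, 79.4 and 80.7 CPM in the libraries labelled nsra/b. The groups did not overlap, and the fall of 11.8% (log2 fold change -0.18 ± 0.03 SE, edgeR adjusted p 0.000167) was called in all 6 fits without 1 library and by DESeq2. CYP79B2 (AT4G39950) had 74.1, 72.7 and 78.2 CPM against 68.6, 73.1 and 69.6 CPM. The value of 73.1 CPM lay within the Col-0 range, and the log2 fold change of -0.09 ± 0.03 (SE) had an edgeR adjusted p of 0.0697. The TPM ratios of CYP79B2 to CYP79B3 overlapped between the groups.

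The later core genes did not pass the test. SUR1 (AT2G20610), the C-S lyase that both branches use, had 84.3, 86.4 and 84.8 CPM in Col-0 and 80.3, 80.6 and 79.7 CPM in the libraries labelled nsra/b. The values did not overlap, and the log2 fold change of -0.09 ± 0.03 (SE) had an edgeR adjusted p of 0.0388, above the threshold of 0.01. SOT16 (AT1G74100), the sulfotransferase of indolic desulfoglucosinolates, had 68.0, 72.4 and 72.2 CPM against 70.8, 67.5 and 73.1 CPM. It overlapped fully, with a log2 fold change of -0.01 ± 0.03 (SE). The sulfotransferases SOT17 and SOT18 had log2 fold changes of -0.10 and -0.04, and the glucosyltransferase UGT74B1 -0.03. AT2G31790, which the RefSeq annotation names only as a UDP-glycosyltransferase superfamily protein, had -0.01. The glutathione transferases GSTU20 and GSTF11 had -0.06 and 0.04, and the gamma-glutamyl peptidase GGP1 had -0.07.

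**Figure D3:**
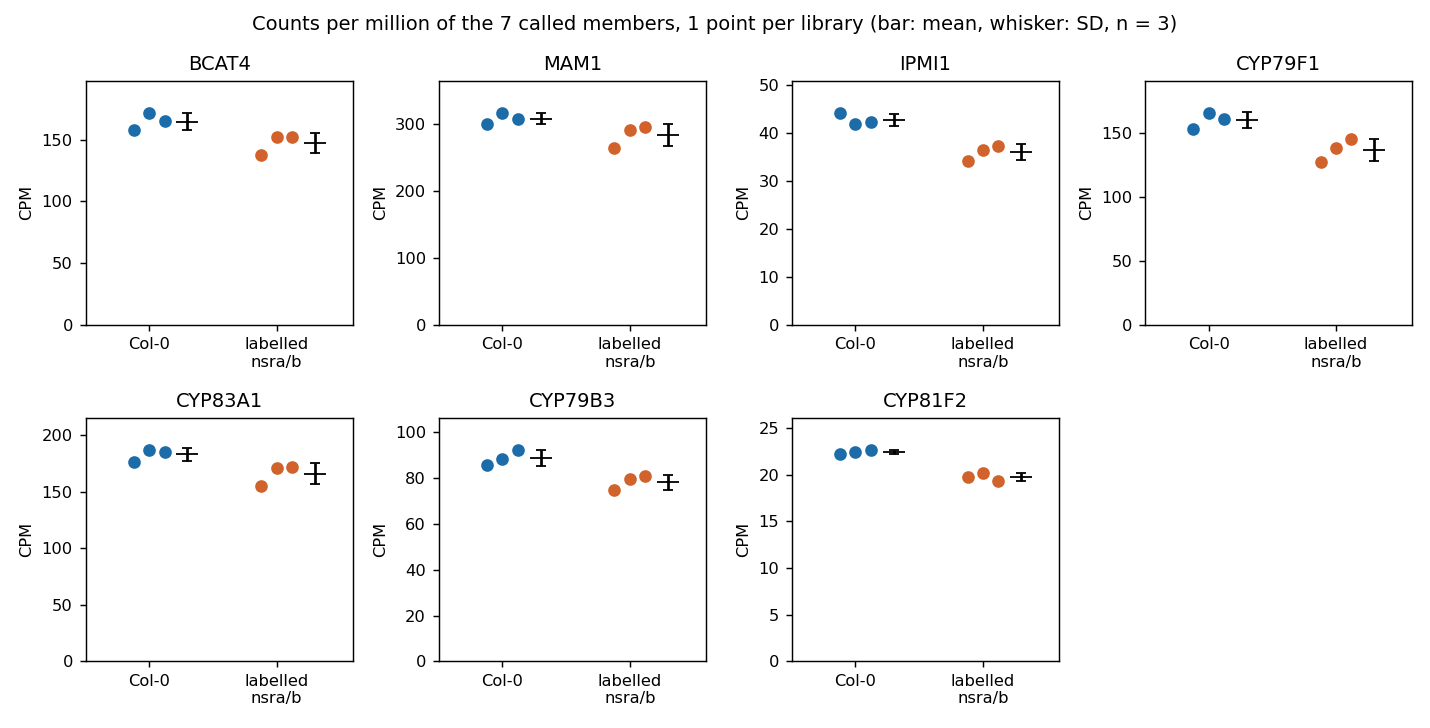
Scaled counts in CPM (y axes, from 0) of the 7 called members in each library, with the mean and SD of the 3 libraries beside the points. In every panel the 3 libraries labelled nsra/b lie below the 3 Col-0 libraries, by the largest share for IPMI1 and the smallest for MAM1.

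Of the side-chain genes, 1 fell among 4 tested, beside 3.58% of all tested features. CYP81F2 (AT5G57220) hydroxylates the indole ring of indolic glucosinolates, and lies on chromosome 5 from 23187840 to 23189902 (plus strand). It had 22.2, 22.4 and 22.7 CPM in Col-0 and 19.7, 20.2 and 19.3 CPM in the libraries labelled nsra/b, without overlap. It fell by 11.9% (95% interval -17.8% to -5.66%), a log2 fold change of -0.18 ± 0.05 (SE) with an edgeR adjusted p of 0.00829. This call had the highest edgeR adjusted p of the 7, and none of the 6 fits without 1 library made it. DESeq2 gave an adjusted p of 0.0796, below the 0.179 it gave MAM1.

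FMO GS-OX1, which oxidises methylthioalkyl to methylsulfinylalkyl glucosinolates, had 21.6 ± 1.14 CPM in Col-0 and 19.1 ± 1.13 CPM in the libraries labelled nsra/b (SD, n = 3 each). Its groups did not overlap, and the log2 fold change of -0.17 ± 0.05 (SE) had an edgeR adjusted p of 0.0247, above the threshold. FMO GS-OX3 had a log2 fold change of -0.02. AOP2 (AT4G03060), annotated as a transcribed pseudogene and known to make no active enzyme in Col-0, had 21.7, 22.9 and 22.2 CPM against 21.6, 20.0 and 22.1 CPM. Its libraries overlapped, with a log2 fold change of -0.07 ± 0.05 (SE).

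TGG1 was the most abundant of the 37 genes per length, at 1611 ± 10.9 TPM in Col-0, followed by the glutathione transferase GSTU20 at 268.3 ± 11.2 TPM and TGG2 at 256.7 ± 5.92 TPM (SD, n = 3 each). The spreads of GSTU20 and TGG2 met within 1 SD. TGG1 and TGG2 together held between 44.5% and 47.9% of the counts of all 37 genes in each library.

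TGG1 (AT5G26000), on chromosome 5 from 9079452 to 9082384 (minus strand), had 1945, 1934 and 1895 CPM in Col-0 and 1962, 2032 and 2017 CPM in the libraries labelled nsra/b. The groups did not overlap, but the log2 fold change of 0.06 ± 0.02 (SE) had an edgeR adjusted p of 0.0726. TGG2 (AT5G25980), from 9072708 to 9075777 on the plus strand, had 318.5, 328.2 and 310.7 CPM against 300.2, 316.8 and 299.6 CPM. These overlapped, with a log2 fold change of -0.06 ± 0.03 (SE) and an edgeR adjusted p of 0.107. The TPM ratio of TGG1 to TGG2 was 6.35, 6.13 and 6.35 in Col-0 and 6.80, 6.67 and 7.01 in the libraries labelled nsra/b, and these ratios did not overlap. No stretch of 100 bases was identical between the transcripts of TGG1 or TGG2 and those of any other gene.

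**Figure D4:**
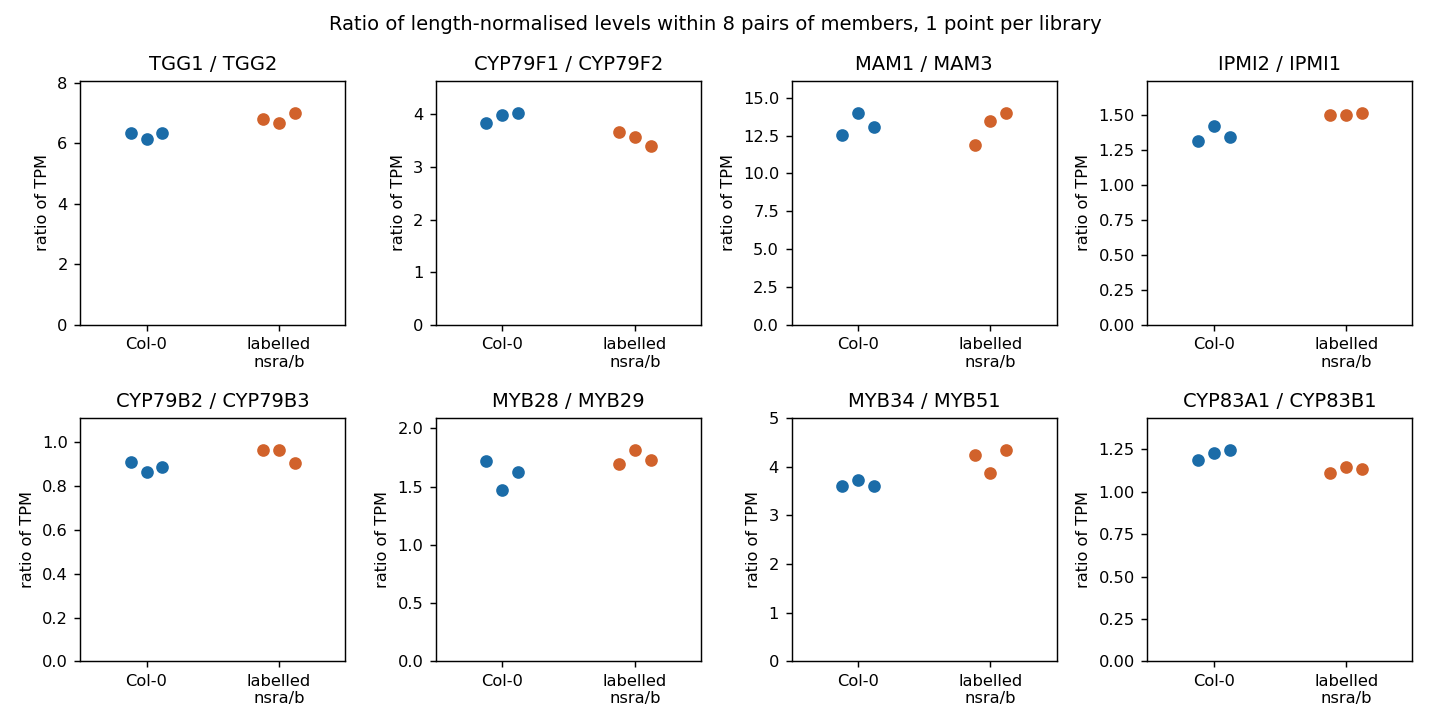
The ratio of length-normalised levels (y axes, TPM over TPM, from 0) within 8 pairs of members, 1 point per library. The ratio was higher in all libraries labelled nsra/b for TGG1 to TGG2, IPMI2 to IPMI1 and MYB34 to MYB51, lower for CYP79F1 to CYP79F2 and CYP83A1 to CYP83B1, and overlapped for the other 3 pairs. The share over other gene pairs was not counted. Among all tested single features, 30% had groups that did not overlap.

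By branch, 5 of 23 tested aliphatic genes and 2 of 8 indolic genes fell, beside 3.58% of all tested features. None of the 3 shared core genes fell. The summed level was 1985 ± 54.0 CPM in Col-0 and 1856 ± 80.9 CPM in the libraries labelled nsra/b for the aliphatic genes, and 464.6 ± 7.35 CPM and 445.6 ± 11.7 CPM for the indolic genes (SD, n = 3 each). The aliphatic sums, 1931, 2039 and 1986 CPM against 1764, 1889 and 1915 CPM, did not overlap. The indolic sums, 456.7, 466.1 and 471.1 CPM against 432.4, 450.0 and 454.5 CPM, did not overlap either. These sums cover the members only, not the whole of each branch. They leave out the indolic side-chain gene CYP81F4, at 370.3 ± 9.79 CPM in Col-0 and 411.4 ± 10.4 CPM in the libraries labelled nsra/b (SD, n = 3 each). Further side-chain genes, with log2 fold changes of both signs, are given below. The difference between the branches was not tested. Over all 37 genes the sum was 4984 ± 70.6 CPM and 4888 ± 139 CPM, and overlapped.

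The aliphatic and indolic MYB factors work with the bHLH factors MYC2, MYC3 and MYC4, which bind the G-box CACGTG. None of these 3 genes passed the test, with log2 fold changes of 0.05, -0.03 and 0.00. The motif CACGTG, which reads the same on both strands, was searched from 250 bases before to 50 bases after each annotated gene start. It was found for 6 of the 37 members (16.2%) and for 2107 of 27443 protein-coding genes (7.68%). Of the 7 called members 1, CYP83A1, held it. The 30 bases around each match are shown 5′ to 3′ on the strand of the gene, with the motif in capitals, to let the few members that hold it be compared. They come from the RefSeq sequence of TAIR10.1.
CYP83A1, chr4:7992455-7992484, minus strand: tattaattctaaCACGTGaggtttcgtaag
SUR1, chr2:8880473-8880502, minus strand: taatttttgtggCACGTGattttagttttg
IIL1, chr4:7808005-7808034, minus strand: agtatgaagtatCACGTGattaaacgttta
BAT5, chr4:7210800-7210829, plus strand: gtgtgtcatttaCACGTGcgtatcgtggaa
FMO GS-OX3, chr1:23159751-23159780, plus strand: tcgttcaccgaaCACGTGgattggaatgag
MYB122, chr1:27855582-27855611, plus strand: aaactacaaatcCACGTGtcaaacacttga
In CYP83A1, SUR1 and IIL1 the motif began 43, 50 and 38 bases before the gene start, and in BAT5, MYB122 and FMO GS-OX3 it lay 5, 16 and 29 bases after it. A match is a description of these letters only.

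Other genes of the pathway were counted from lists drawn up for this comparison, with earlier results of these data known. Shares within these lists are descriptions only. None of the 12 genes of sulfate activation and sulfur response tested passed the threshold, among them the APS kinases APK1 and APK2 that supply the sulfate donor. Their median log2 fold change was 0.01, and their summed level was 993.4 ± 5.36 CPM in Col-0 and 993.4 ± 28.7 CPM in the libraries labelled nsra/b (SD). APK2 (log2 fold change -0.10, edgeR adjusted p 0.0248) and APS3 (-0.13, edgeR adjusted p 0.149) had all libraries labelled nsra/b below Col-0. APS4 (0.05) and AT1G04770 (0.07) had them all above. None of the 3 transport genes tested was called, with log2 fold changes of 0.07 for GTR1, -0.04 for GTR2 and 0.12 for NRT1.9.

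Among 9 further side-chain genes tested, 3 rose and none fell, beside 5.28% and 3.58% of all features. Of these 9, 2 had log2 fold changes below 0, beside 50% of all features, and the median was 0.11. For 6 the libraries labelled nsra/b lay above all Col-0 libraries and for 0 below, beside 15.9% and 14.1% of all features. FMO GS-OX2, an S-oxygenase of the same family as the member FMO GS-OX1, had 11.4, 10.5 and 11.8 CPM in Col-0 and 14.5, 15.1 and 15.2 CPM in the libraries labelled nsra/b (log2 fold change 0.41 ± 0.06 SE, edgeR adjusted p 1.3e-05). FMO GS-OX4 had 38.5, 38.9 and 40.2 CPM against 51.1, 49.3 and 49.8 CPM (log2 fold change 0.35 ± 0.04 SE, edgeR adjusted p 7.6e-09). Neither pair of groups overlapped. CYP81F4, which forms 1-hydroxyindole glucosinolates, rose by 11.2%, whereas CYP81F2 of the members fell.

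Among 12 tested genes of breakdown other than TGG1 and TGG2, 5 rose and 1 fell, beside 5.28% and 3.58% of all features. Of these 12, 3 had log2 fold changes below 0, beside 50% of all features, and the median was 0.12. For 7 the libraries labelled nsra/b lay above all Col-0 libraries and for 2 below, beside 15.9% and 14.1% of all features. DESeq2 called 3 of these higher (ESP, NSP1 and PYK10), beside 3.04% of all features, and 1 lower (ESM1). The specifier gene ESP, whose product turns hydrolysis toward nitriles, had 7.13, 7.40 and 7.32 CPM against 9.30, 10.1 and 9.33 CPM (log2 fold change 0.39 ± 0.08 SE, edgeR adjusted p 0.000305). ESM1, which favours isothiocyanates, had 245.8, 241.5 and 231.9 CPM against 205.1, 198.2 and 207.2 CPM (log2 fold change -0.24 ± 0.03 SE, edgeR adjusted p 3.8e-08). Neither pair of groups overlapped. Enzyme activity and hydrolysis products were not measured, so these RNA levels do not show which products were formed. The nitrile specifier genes NSP1 and NSP4 rose by 10.6% and 7.30%, but they share 384 stretches of 100 bases with each other, so their separate values are uncertain. The myrosinase gene TGG4 rose by 19.4%, and shares 174 such stretches with TGG5. PYK10, the beta-glucosidase of root endoplasmic reticulum bodies, rose by 11.7%. DESeq2 gave adjusted p values of 0.0282 for NSP4 and 0.0422 for TGG4, above the threshold.

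**Figure D5:**
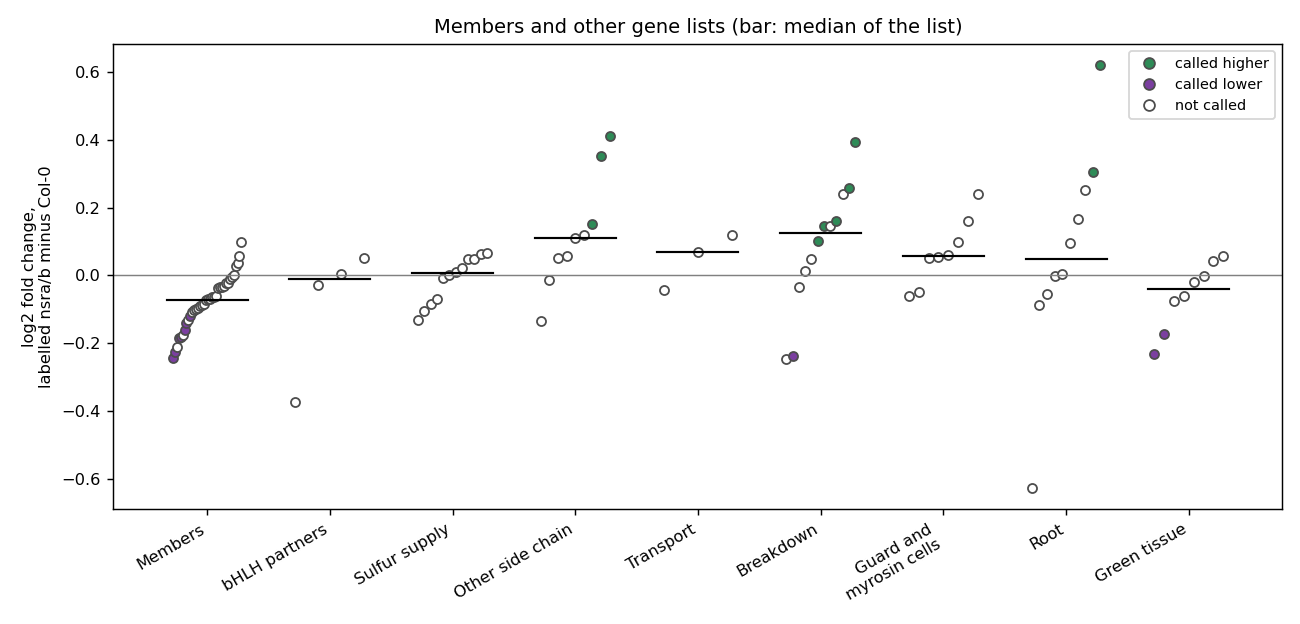
The log2 fold change (y axis, libraries labelled nsra/b minus Col-0) of each tested gene in the members and 8 further lists, with the median of each list as a bar. Filled points passed an adjusted p of 0.01. The members include 7 called lower and none higher, the breakdown list 5 higher and 1 lower, and the further side-chain list 3 higher.

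Some tissue markers differed between the groups beside these genes. Of all tested features, 5.28% were called higher and 3.58% lower, and 15.9% and 14.1% had groups that did not overlap in these directions. The marker counts below are small and are not read as a result about tissue. The 10 root markers, all detected, had summed levels of 114.0 to 124.1 CPM in Col-0 and 128.4 to 137.0 CPM in the libraries labelled nsra/b, and 2 of them, PRP3 (log2 fold change 0.62) and CASP1 (0.31), rose and none fell. PRP3 went from 12.4 to 19.0 CPM on average and CASP1 from 24.8 to 30.6 CPM, while the whole sum went from 119.9 to 133.5 CPM, so these 2 genes made up most of the rise in the sum. The other 8 did not pass the test and had log2 fold changes of both signs. SMB (-0.63) and PIN2 (-0.09) had all 3 libraries labelled nsra/b below all Col-0 libraries, and SCR and SHR had log2 fold changes of -0.00 and 0.00. The 8 green-tissue markers summed to between 42250 and 44370 CPM in Col-0 and between 41160 and 41970 CPM in the libraries labelled nsra/b, and 2 of them, LHCB1.1 and LHCB1.2, fell and none rose, with log2 fold changes of -0.17 and -0.23. Of the other 6, none of which passed the test, LHCB2.1 (-0.08) and LHCB5 (-0.06) had all 3 libraries labelled nsra/b below Col-0, RCA (0.04) and GAPA1 (0.06) had them all above, and RBCS1A (-0.02) and PSBO1 (-0.00) overlapped. LHCB1.1, LHCB1.2 and LHCB2.1 share sequence with other copies, and their separate values are uncertain. None of 8 markers of guard cells and myrosin cells passed the test, and their sum was 192.0 to 203.5 CPM against 203.7 to 208.3 CPM. The part of the tissue markers in the changes of the glucosinolate genes was not tested.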

How the data were processed

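Poly(A) RNA of 6 seedling libraries was sequenced with a stranded, paired-end protocol. The authors aligned the reads with tophat to TAIR10, keeping 1 position per read, and counted them per gene with a strand-specific union rule. The deposited values are raw counts for 44200 features. Versions were not given in the sources used here. The table was fitted whole with edgeR 4.0.16 (TMM scaling, count filter with a minimum of 10 and a total of 15, genotype as the only term, R 4.3.3). Values in CPM, counts scaled to library size, use TMM-scaled totals. TPM values use exon lengths of TAIR10.1 for 37498 features. DESeq2 1.42.0 and limma 3.58.1 were alternatives, as were other filters, scalings, thresholds, a replicate block and leaving out each library. A count of 3 corresponds to 0.0921 to 0.116 CPM, for counting error only. The members and gene lists were chosen with earlier results of these data known. All 37 members are accounted for. Values per library are given for called members and for the most abundant or best known gene of each step, and genes of other lists are named where called or where they define the list. On simulated counts with known changes, edgeR recovered 11 of 50 genes at a log2 change of 0.2, 38 of 49 at 0.4, 45 of 49 at 0.8 and 47 of 50 at 1.6, with 5 false calls among 21290. Libraries of 1 genotype differed by more than sampling noise (chi-square over its degrees of freedom 1.36 to 1.90).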

Additional observations from a re-analysis of the deposited data

How the results depend on the processing

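The count of 7 members called lower was 7 with DESeq2 size factors, both other filters and limma voom, and 6 with library size only. It was 4 with DESeq2, 9 at an adjusted p under 0.05, 1 with Bonferroni adjustment, 0 with a log2 fold change of at least 1 in size, 0 with the biological coefficient of variation fixed at 0.1 (estimated value 0.0203), and 3 to 7 without single libraries. GGP1 was called only without nsra/b replicate 3. No member was called higher in any of these. Over all features, 1140 were called higher and 774 lower. DESeq2 called 657 and 463, the fixed coefficient of variation 136 and 67, the threshold of 0.05 1833 and 1385, Bonferroni 325 and 169, and the minimum fold 50 and 45. Without single libraries 793 to 1109 features were higher and 494 to 750 lower, the fewest lower ones without Col-0 replicate 1 (494) and replicate 2 (497). The sign of small changes was not stable. The log2 fold change of MYB28 was -0.0018 with DESeq2 size factors, -0.0011 without a filter, -0.0024 with DESeq2 and -0.0013 with the fixed coefficient of variation, and that of AT2G31790 was 0.0017 with library size only. Without single libraries it ran from -0.0071 to 0.013 for MYB28, -0.047 to 0.065 for MYB76, -0.14 to 0.00036 for CYP79F2, -0.053 to 0.0030 for CYP83B1, -0.030 to 0.084 for GSTF11, -0.038 to 0.030 for AT2G31790, -0.039 to 0.022 for SOT16 and -0.062 to 0.038 for FMO GS-OX3. The cause was not tested. Over all tested features, same-numbered libraries did not deviate together (correlations -0.012, 0.025 and 0.056), so the numbers were not read as pairs. These correlations were not computed for the members alone. With the replicate number as a block, 1227 features were higher and 866 lower, with 7 members lower and 0 higher. With this block the edgeR adjusted p of the 7 ran from 5.9e-08 (CYP79F1) to 0.00853 (CYP81F2), beside 7.2e-06 and 0.00829 for these 2 genes without it.

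With 3 libraries a group, an exact permutation test of a single value cannot go below p = 0.1, so the calls rest on a spread estimated across all features. The small falls lie at fold changes where the simulation recovered few genes, but its changed genes were drawn from all tested features. Recovery at the levels of the called members was not simulated separately. Seedlings were whole, so a change in 1 organ cannot be told from a change in all.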
